A study of Citrus junos with 4 samples.

Results

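The mitochondrial respiratory chain genes of Ziyang xiangcheng (*Citrus junos*), a citrus rootstock, were compared between leaves of 4× plants, a doubled diploid with 2 copies of the diploid genome, and leaves of 2× plants, the diploid. They were taken from a deposited table of RPKM, in which reads that map to a single place are counted per gene and scaled by gene length and by the size of the library. A gene was included when the text of its description named NADH dehydrogenase [ubiquinone], cytochrome c oxidase, cytochrome b-c1, ubiquinol oxidase or alternative oxidase, or named ATP synthase together with mitochondrial. This gave 67 of the 29406 genes of the table. By their descriptions, 48 of them are subunits of complexes I (26 genes), III (8), IV (5) and V (9), 9 are assembly factors, 4 are alternative oxidases and 6 carry a description that names another kind of protein as well. The identifiers of 61 members name a chromosome, from 3 members on chromosome 9 to 11 on chromosome 1, and those of the other 6 name none.

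Each ploidy level was measured in 2 libraries, named here 4×-1, 4×-2, 2×-1 and 2×-2. Mature leaves 3 to 5 months old, taken near the plant top, were pooled from 4 plants for each library. The 4× and 2× seedlings were greenhouse-grown, and no other treatment is named for either group. The libraries held 9363285 and 8874306 reads in 4× and 9324856 and 9545185 reads in 2×. These totals were recovered from the RPKM of 44 genes taken to have equal reads in all 4 libraries. The read numbers given below for single genes are the smallest whole numbers that produce their RPKM. P-values measure only the spread between these pools. In pooled leaf RNA, fewer cells of a type and less RNA per cell cannot be told apart.

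The respiratory chain of the inner mitochondrial membrane passes electrons from NADH through complex I to ubiquinone, from ubiquinol through complex III to cytochrome c, and from cytochrome c through complex IV to oxygen. Complexes I, III and IV pump protons, and complex V, the ATP synthase, uses the returning protons to make ATP. Plants have in addition the alternative oxidase, which passes electrons from ubiquinol straight to oxygen without pumping protons. Some subunits of these complexes are encoded in the mitochondrial genome of plants, and the genes described here are those the description words found in the nuclear gene table.

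No respiratory chain gene passed the test between 4× and 2× leaves. Of the 67 members, 60 averaged 1 RPKM or more and were tested, and 0 of 60 had an adjusted p below 0.05 (limma on log2(RPKM + 0.5), Benjamini-Hochberg over 16157 genes), where 1.39% of all tested genes were called, 0.99% lower and 0.396% higher in 4×. At an unadjusted p below 0.05 there were 3 members, against 13.3% of all tested genes, and limma voom on the recovered reads also called 0 members. The log2 fold changes of 4× over 2× ran between -0.38 and 0.14, with a median of -0.09, where the median of all tested genes was -0.03. The intervals were narrow. The 95% interval lay within 0.5 log2 units of 0 on both sides for 55 of the 60 members, or 91.7%, and for 76.8% of all tested genes that averaged 15 RPKM or more, and it lay within 1 log2 unit for all 60 members.

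Of the 60 members, 47 were lower and 13 higher in 4× by their fold change, or 78.3% lower, where 55.6% of all tested genes were lower. In 17 members both 4× libraries lay below both 2× libraries, which was the case for 26.2% of all tested genes, and in 3 members both lay above, against 17.5% of all tested genes. The count of lower members turned on 1 library. Without 4×-2, 34 of the 60 fold changes were below 0, or 56.7%, beside 56.2% of all tested genes, and the median of the members was -0.02. The count also moved, by less, with the other libraries. It was 53 without 4×-1, 42 without 2×-1 and 49 without 2×-2, or 88.3%, 70% and 81.7%. The shares of all tested genes were then 53.0%, 52.5% and 58.8%.

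**Figure D1:**
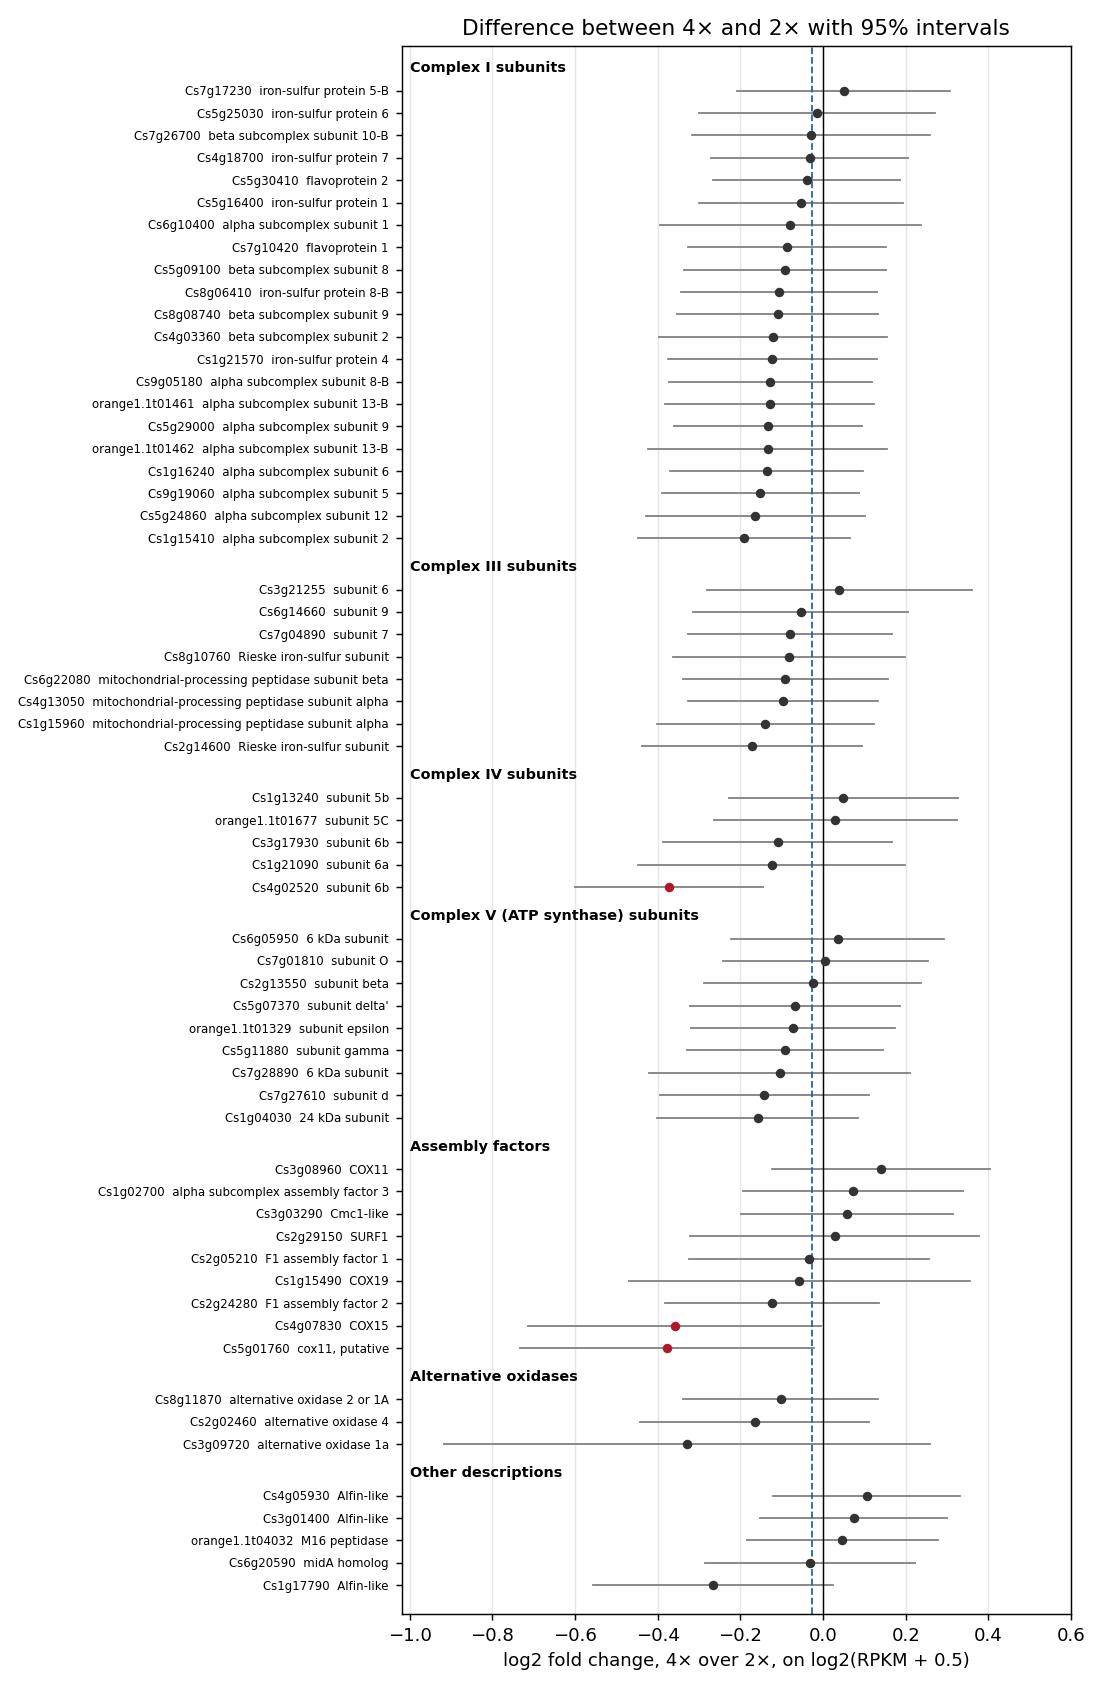
Log2 fold change of 4× over 2× leaves on the log2(RPKM + 0.5) scale for the 60 tested members, with 95% intervals from limma. The dashed line is the median of all 16157 tested genes, -0.03; the 3 red points have an unadjusted p below 0.05, and none of the 60 has an adjusted p below 0.05.

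Complex I, the NADH dehydrogenase, is the entry point of electrons and has the most members. Its 21 tested subunits had means of 36.5 to 269 RPKM with a median of 84.4 RPKM, so that they spread over 7.38-fold. Their median stood at percentile 91.3 of all tested genes. In the 4× libraries the 26 subunits summed to 2146 and 1881 RPKM, against 2193 and 2115 RPKM in the 2× libraries. The sum of 4×-1 lay between the 2× sums and that of 4×-2 below both (4× over 2× 0.935, exact permutation p = 0.667, two-sided; the smallest p that 2 libraries against 2 allow is 0.333). Of the 21 fold changes 20 were below 0, with a median of -0.11, and without 4×-2 the median was -0.02.

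The highest complex I subunit was Cs6g10400, alpha subcomplex subunit 1, a small protein of the membrane arm in mammals. It had 294.9 and 230.2 RPKM in 4×-1 and 4×-2, against 283.8 and 267.1 RPKM in 2×-1 and 2×-2. The 2 libraries of 4× held both the highest and the lowest value, and the 2× values lay between them (log2 fold change -0.08, 95% interval -0.39 to 0.24, adjusted p = 0.878 with limma). The lowest tested gene described under complex I was Cs1g02700, alpha subcomplex assembly factor 3, which helps to build the complex in mammals. It had 22.3 and 20.6 RPKM in 4×, against 19.3 and 21.4 RPKM in 2×, and the groups overlapped.

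Alpha subcomplex subunit 2, Cs1g15410, had the largest decrease among the complex I subunits whose libraries did not overlap. Its values were 117.2 and 99.6 RPKM in 4×, against 124.3 and 122.6 RPKM in 2×. The difference between the 4× libraries exceeded the gap from 4×-1 to the 2× libraries, and the fold change did not pass the test (log2 fold change -0.19 ± 0.11 SE, adjusted p = 0.537 with limma; n = 2 per group). The subunits that hold the redox centres were chosen for description after their values were seen. Flavoprotein 1, Cs7g10420, which binds NADH and FMN, had 70.1 and 63.5 RPKM in 4×, against 73.3 and 68.6 RPKM in 2×. Of its partners in the NADH-oxidising module, flavoprotein 2 (Cs5g30410) stood close to it, with means of 74.9 RPKM in 4× and 77.0 RPKM in 2×. Iron-sulfur protein 1 (Cs5g16400) was lower, with means of 49.1 RPKM in 4× and 51.0 RPKM in 2×. Iron-sulfur protein 7, Cs4g18700, which lies beside the ubiquinone site, had 103.1 and 95.4 RPKM in 4×, against 105.2 and 97.8 RPKM in 2×. The 4× and 2× libraries of these genes were within the spread of each other. Iron-sulfur protein 8-B, Cs8g06410, had 87.9 and 83.1 RPKM in 4×, against 96.0 and 88.2 RPKM in 2×. Its 4× libraries both lay below both 2× libraries, and the gene did not pass the test (adjusted p = 0.746 with limma).

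Complex III, the cytochrome b-c1 complex, had 8 subunits with means of 22.4 to 161 RPKM and a median of 84.5 RPKM. They summed to 732.6 and 662.3 RPKM in 4×, against 749.7 and 724.3 RPKM in 2×, with the lowest sum again in 4×-2 (exact permutation p = 0.667). The highest was subunit 9, Cs6g14660, with 168.5 and 146.9 RPKM in 4×, against 168.8 and 158.1 RPKM in 2×. Its libraries overlapped. In plants the core subunits of this complex are the mitochondrial-processing peptidase, which cuts the targeting sequence from imported proteins. Its alpha subunit was named for 2 genes. Cs4g13050 had 89.7 and 92.4 RPKM in 4×, against 100.2 and 94.6 RPKM in 2×. Cs1g15960, the lowest subunit of the complex, had 20.9 and 21.5 RPKM in 4×, against 25.0 and 22.0 RPKM in 2×. In both genes the 4× libraries lay below the 2× libraries, and neither passed the test, with adjusted p = 0.772 for Cs4g13050 and 0.687 for Cs1g15960 (limma).

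Complex IV, cytochrome c oxidase, reduces oxygen to water. Its 5 subunits included the highest of all respiratory chain genes, orange1.1t01677, subunit 5C, at 514.0 and 473.0 RPKM in 4× against 490.4 and 475.8 RPKM in 2×. The libraries of this gene overlapped (log2 fold change 0.03, 95% interval -0.26 to 0.32). Its recovered reads numbered only 1740 over the 4 libraries. Subunit beta of complex V, Cs2g13550, had 15802 reads at a mean of 174.7 RPKM. The high RPKM of orange1.1t01677 thus rests on a short gene length, and its rank depends on that length. The other 4 subunits of complex IV had means of 57.7 to 163 RPKM. The 5 together summed to 881.4 and 781.7 RPKM in 4×, against 874.9 and 835.4 RPKM in 2×, which overlapped (exact permutation p = 1).

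The smallest adjusted p of all members belonged to Cs4g02520, a subunit 6b named 6b-3, a subunit on the intermembrane-space side of complex IV. It had 63.5 and 59.9 RPKM in 4×, against 80.2 and 79.8 RPKM in 2×. Both 4× libraries lay below both 2× libraries, and the gap was larger than the difference within either group (log2 fold change -0.37 ± 0.10 SE, 95% interval -0.60 to -0.15). The adjusted p was 0.126 in limma, and 0.065 to 0.407 over 12 other settings, so that the gene was not called in any of them. The gene named 6b-1, Cs3g17930, had 61.7 and 60.1 RPKM in 4×, against 73.5 and 58.9 RPKM in 2×, and its groups overlapped. The ratio of Cs4g02520 to Cs3g17930 was 1.03 and 0.996 in 4×, against 1.09 and 1.35 in 2×. Each ratio in 4× lay below both in 2×, with the smallest p that the design allows (exact permutation p = 0.333).

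Complex V, the ATP synthase, had the highest typical level. Its 9 subunits had means of 44.5 to 275 RPKM and a median of 151 RPKM, and summed to 1345 and 1213 RPKM in 4×, against 1332 and 1327 RPKM in 2× (exact permutation p = 1). The 4× libraries stood on either side of the 2× libraries. A pair of genes for a 6 kDa subunit was at the top. Cs7g28890 had 299.5 and 232.7 RPKM in 4×, against 278.4 and 289.8 RPKM in 2×, with the 2× values between those of 4×. Cs6g05950 had 259.6 and 241.2 RPKM in 4×, against 250.0 and 238.4 RPKM in 2×, and its groups overlapped. Subunit beta, Cs2g13550, which carries the catalytic sites, had 167.4 and 178.7 RPKM in 4×, against 188.8 and 164.0 RPKM in 2×. This gene was named after its values were seen. It was higher in 4×-2 than in 4×-1, where 38 of 43 subunits were lower in 4×-2. The gamma subunit of the rotor, Cs5g11880, also chosen after its values were seen, had 115.7 and 106.5 RPKM in 4×, against 116.0 and 120.8 RPKM in 2×.

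**Figure D2:**
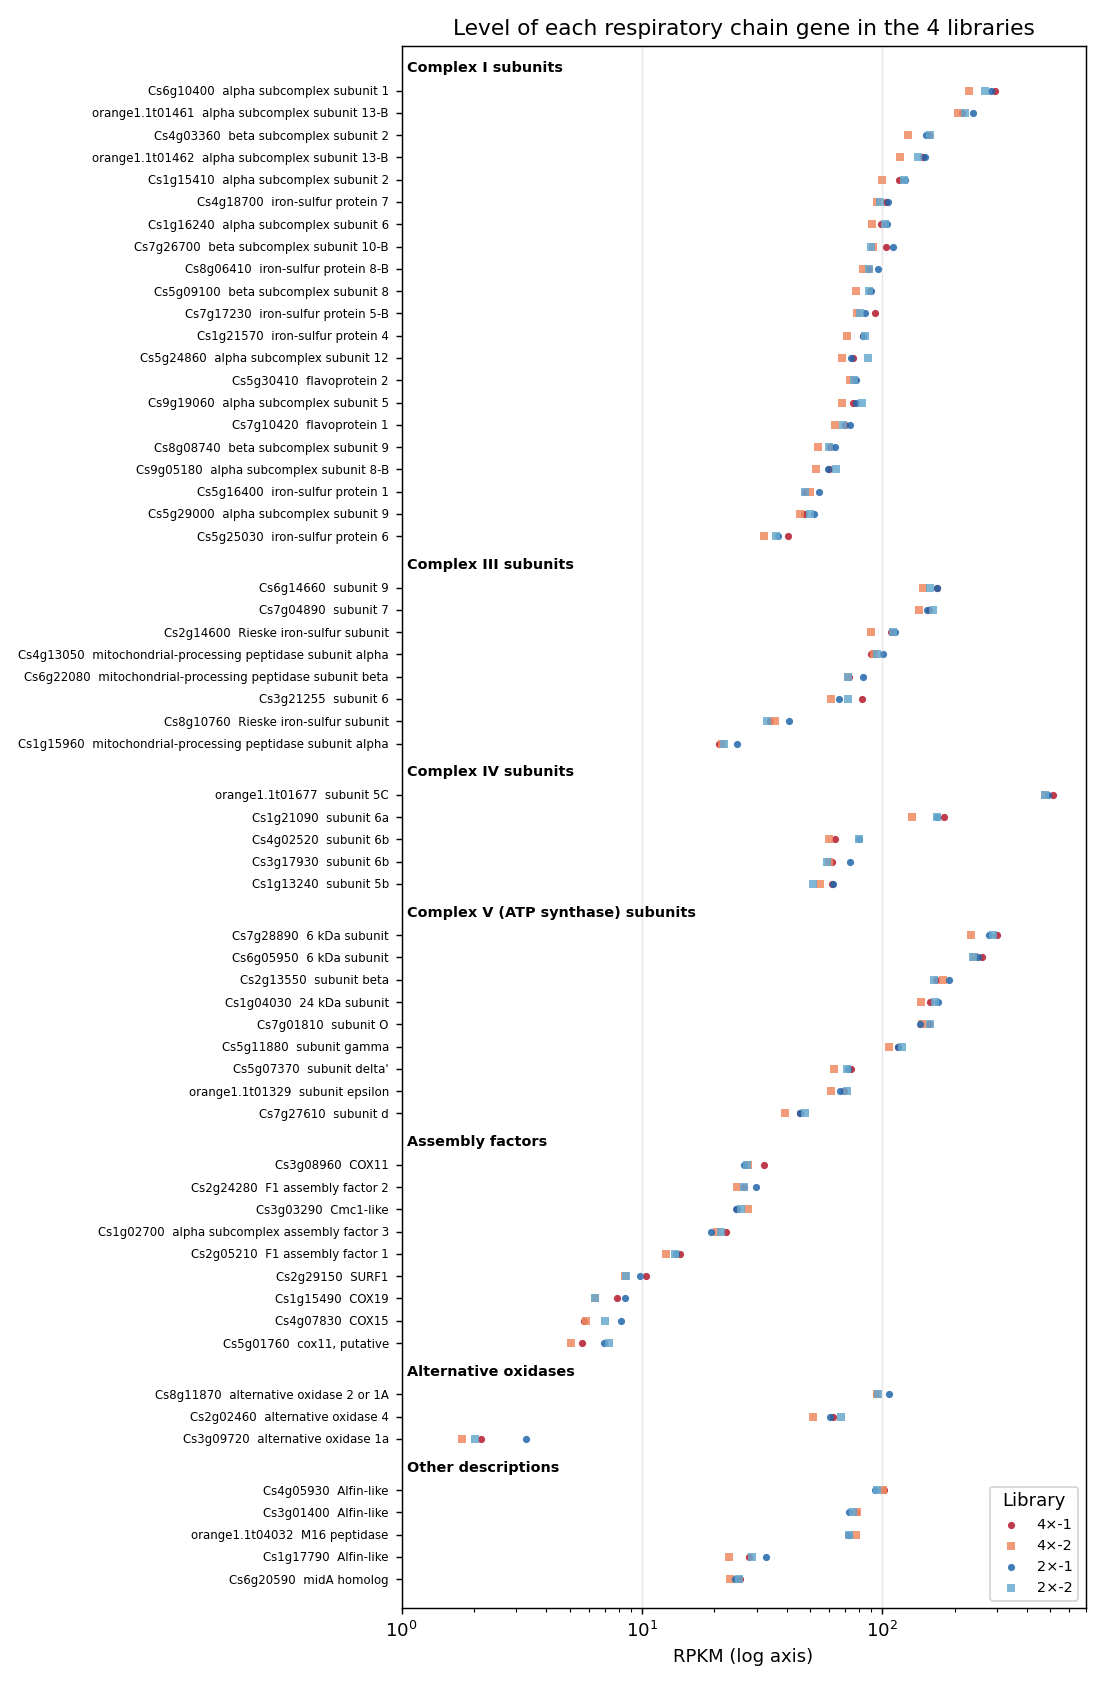
RPKM of the 60 tested members in the 4 libraries (log axis), ordered within each group by the mean. The points of a gene lie close together beside the distances between genes, and the 9 assembly factors sit at means of 6.23 to 28.4 RPKM, where the 43 subunits have a median of 86.3 RPKM.

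The assembly factors, which insert cofactors or join subunits and are not part of the finished complexes, were much lower than the subunits. Their 9 means ran from 6.23 to 28.4 RPKM with a median of 13.7 RPKM, near the median of all tested genes, 13.6 RPKM. The 43 tested subunits had a median of 86.3 RPKM, and 42 of them lay above the highest assembly factor in each of the 4 libraries, the exception being Cs1g15960. RPKM is scaled by gene length, so these levels can be set side by side only roughly. How far the mapping to the *C. sinensis* genome differed between these genes was not tested. The assembly factors summed to 150.1 and 139.1 RPKM in 4×, against 147.7 and 144.2 RPKM in 2×, and the groups overlapped.

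The other members with an unadjusted p below 0.05 were both described as assembly factors of complex IV. Cs4g07830, COX15, which takes part in making heme a, had 5.74 and 5.86 RPKM in 4×, against 8.16 and 7.04 RPKM in 2×. Both 4× libraries were lower (log2 fold change -0.36 ± 0.16 SE, adjusted p = 0.368 with limma). Cs5g01760, the lowest gene described under complex IV, is described both as a putative cox11 assembly protein and as the methyltransferase-like protein 17. It had 5.63 and 5.08 RPKM in 4×, against 6.93 and 7.27 RPKM in 2×. Here too both 4× libraries were lower (log2 fold change -0.38 ± 0.16 SE, adjusted p = 0.342 with limma). The gene whose description gives COX11 without that second name, Cs3g08960, is a copper chaperone of the catalytic centre. It had the largest increase of all members, with 32.2 and 27.6 RPKM in 4×, against 26.6 and 27.3 RPKM in 2×. The value of 4×-2 was barely above 2×-2, and the increase rested on 4×-1 (log2 fold change 0.14, 95% interval -0.12 to 0.40). The F1 assembly factor 1, Cs2g05210, the lowest tested gene described under complex V, had 14.5 and 12.6 RPKM in 4×, against 13.9 and 13.8 RPKM in 2×, which overlapped.

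The 4 alternative oxidase genes differed far more from each other than between 4× and 2×. Cs8g11870, described as alternative oxidase 2 or 1A, was the highest, with 93.8 and 94.6 RPKM in 4×, against 106.3 and 96.3 RPKM in 2×. Both 4× libraries were below both 2× libraries, and 2×-2 was closer to them than to 2×-1 (log2 fold change -0.10, 95% interval -0.34 to 0.13, adjusted p = 0.760 with limma). It stood at the level of a complex III or IV subunit.

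Cs2g02460, alternative oxidase 4, is described as chloroplastic, and its Arabidopsis counterpart oxidises plastoquinol in plastids. It had 62.5 and 51.5 RPKM in 4×, against 60.4 and 67.2 RPKM in 2×, and the groups overlapped. Cs3g09720, alternative oxidase 1a, the form known in Arabidopsis for its induction under stress, had only 2.14 and 1.79 RPKM in 4×, against 3.29 and 2.02 RPKM in 2×. The value of 2×-1 stood apart from the other 3, and the interval of the fold change was wide (log2 fold change -0.33, 95% interval -0.92 to 0.26). The last gene, Cs3g09710, did not reach the mean of 1 RPKM. Its reads were 2 and 3 in 4×, against 8 and 4 in 2×, too few for a comparison. Over the 4 libraries the mean of Cs8g11870 was 42.3 times that of Cs3g09720 and 206 times that of Cs3g09710. The 4 genes summed to 158.7 and 148.3 RPKM in 4×, against 170.9 and 166.0 RPKM in 2×, lower in both 4× libraries (4× over 2× 0.911, exact permutation p = 0.333, the smallest possible). This sum takes in the chloroplastic Cs2g02460, which gave 62.5 and 51.5 RPKM of it in 4×, against 60.4 and 67.2 RPKM in 2×. The mitochondrial genes alone were not compared as a sum.

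Where several genes carried the name of the same subunit, some pairs shared the signal and others did not. In complex I, 5 subunit genes stayed below the mean of 1 RPKM. For alpha subcomplex subunit 1 the copy Cs9g07500 had 1 read in 4×-1 and none in the other 3 libraries, where Cs6g10400 had 3730 reads in all. For iron-sulfur protein 7 the copies Cs4g18690 and Cs1g18560 had 12 and 5 reads over the 4 libraries, where Cs4g18700 had 5010. For iron-sulfur protein 4 the copy Cs3g16130 had 9 reads, where Cs1g21570 had 5200. The last, orange1.1t01617, beta subcomplex subunit 7, was at 0 in all 4 libraries. For alpha subcomplex subunit 1 and iron-sulfur proteins 7 and 4, 1 gene held nearly all reads in both 4× and 2×. No other member carried the name of beta subcomplex subunit 7.

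Other families were shared. The 2 genes for alpha subcomplex subunit 13-B, orange1.1t01461 and orange1.1t01462, stood in a ratio of 1.45 and 1.74 in 4×, against 1.59 and 1.58 in 2×. The 2 Rieske iron-sulfur genes of complex III, Cs2g14600 and Cs8g10760, stood in a ratio of 3.20 and 2.52 in 4×, against 2.74 and 3.33 in 2×. The 2 peptidase alpha genes, Cs4g13050 and Cs1g15960, had the ratio that varied least, 4.28 and 4.29 in 4×, against 4.01 and 4.30 in 2×. The genes for the 6 kDa subunit of complex V, Cs7g28890 over Cs6g05950, gave 1.15 and 0.965 in 4×, against 1.11 and 1.22 in 2×. In each of these 4 families the ratios of 4× and 2× overlapped. Since reads of *C. junos* were placed on the *C. sinensis* genome and only uniquely mapped reads were counted, the division of reads among near-identical copies is uncertain.

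**Figure D3:**
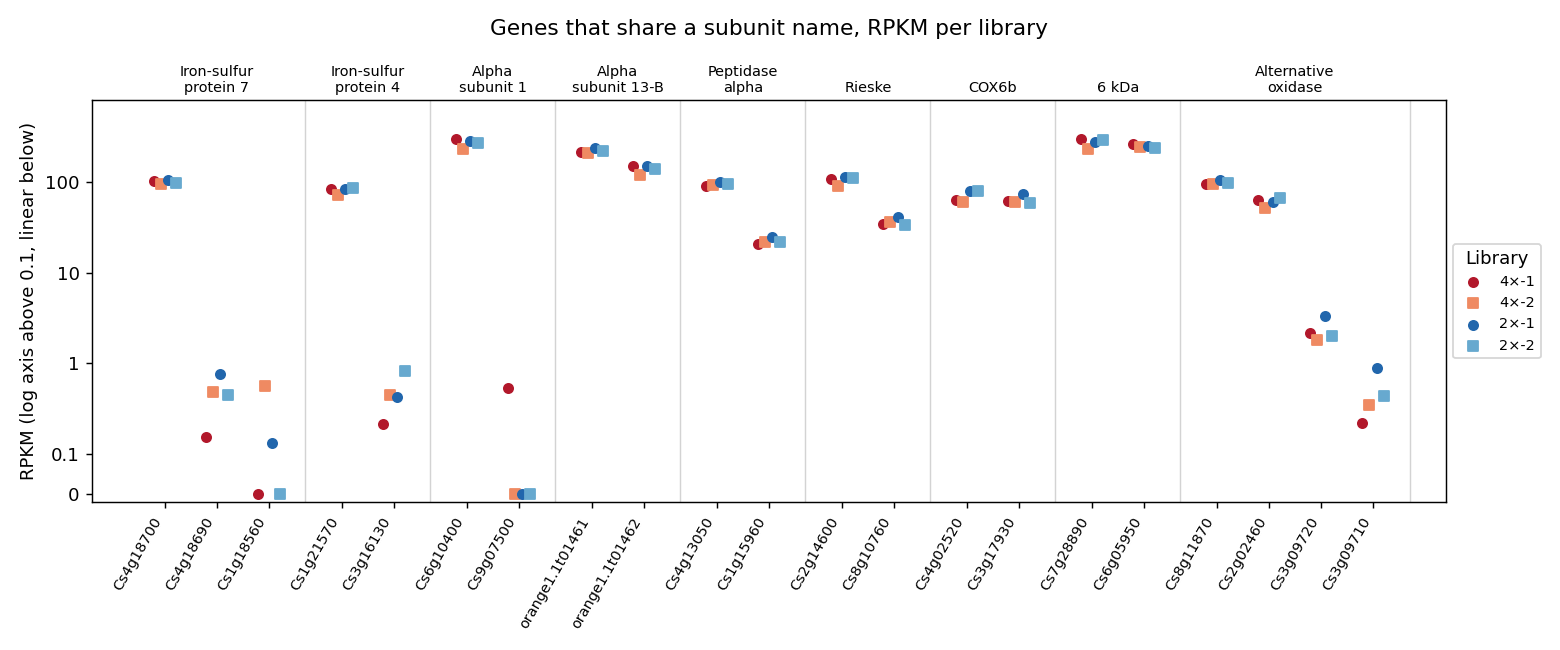
RPKM per library of genes that share a subunit name, on an axis that is logarithmic above 0.1 RPKM and linear below. For iron-sulfur proteins 7 and 4 and alpha subunit 1 the second copies lie below 1 RPKM, while the 2 subunit 6b genes have means of 70.8 and 63.6 RPKM and the 2 genes for the 6 kDa subunit 275 and 247 RPKM.

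Of the 6 members with a mixed description, 4 name a mitochondrial ATP synthase alpha subunit beside an Alfin-like PHD finger protein, a family of nuclear proteins that bind histone H3. They were kept apart from complex V. The remaining 2 name a peptidase of family M16 (orange1.1t04032) and a midA homolog (Cs6g20590), a factor of complex I in other organisms. Of the Alfin-like genes, 2 supplied the other non-overlapping increases. Cs4g05930 had 101.9 and 100.9 RPKM in 4×, against 93.0 and 95.4 RPKM in 2×. Cs3g01400 had 77.5 and 78.2 RPKM in 4×, against 72.5 and 75.4 RPKM in 2×. Neither passed the test, with log2 fold changes of 0.11 for Cs4g05930 and 0.07 for Cs3g01400 and adjusted p = 0.738 and 0.839 in that order (limma). Cs1g17790, of the same family, went the other way with 28.0 and 23.1 RPKM in 4×, against 32.7 and 28.8 RPKM in 2× (log2 fold change -0.27 ± 0.13 SE, adjusted p = 0.422 with limma; -0.13 without 4×-2 and -0.40 without 4×-1). The fourth, Cs3g01390, was at 0 in all 4 libraries. With the Alfin-like genes counted in, the median log2 fold change of complex V remained at -0.07.

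Many members shared a difference within 4×. The library 4×-2 was the lowest of the 4 in 41 of 60 members, or 68.3%, where it was the lowest in 29% of all tested genes and in 32.3% of those that averaged 15 RPKM or more. In complex I it was the lowest in 19 of 21 subunits. In 50 of 60 members 4×-2 lay below 4×-1, against 48.6% of all tested genes, and the median difference of 4×-2 minus 4×-1 was -0.14 log2 units over the members and 0.01 over all tested genes. Within 2×, 2×-2 lay below 2×-1 in 38 of 60 members, against 56.6% of all tested genes, and the median of 2×-2 minus 2×-1 was -0.03 in both. The median difference between the 2 pools of 4× leaves, -0.14, stood beside a median fold change between 4× and 2× of -0.09. The first compares 2 single libraries and the second compares means of 2 libraries, so the first varies more by its making.

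The differences within 4× and within 2× both ran with gene length over all tested genes, in opposite directions. The length used is the shortest that gives whole reads. Over all tested genes, 4×-2 minus 4×-1 had a median of -0.07 log2 units in genes of a recovered length up to 1322 bp, -0.02 in genes of 1323 to 2116 bp and 0.09 in longer genes. Of the 43 subunits, 26 were among the short genes, with a median of -0.17, and 13 among the middle ones, with -0.14. The other 4 were among the long genes, with 0.06. For 2×-2 minus 2×-1 the medians of all tested genes were -0.01, -0.03 and -0.06 from short to long. Those of the subunits were -0.05, -0.02 and -0.20 in the same order. The part of length in the low values of 4×-2 was not tested.

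**Figure D4:**
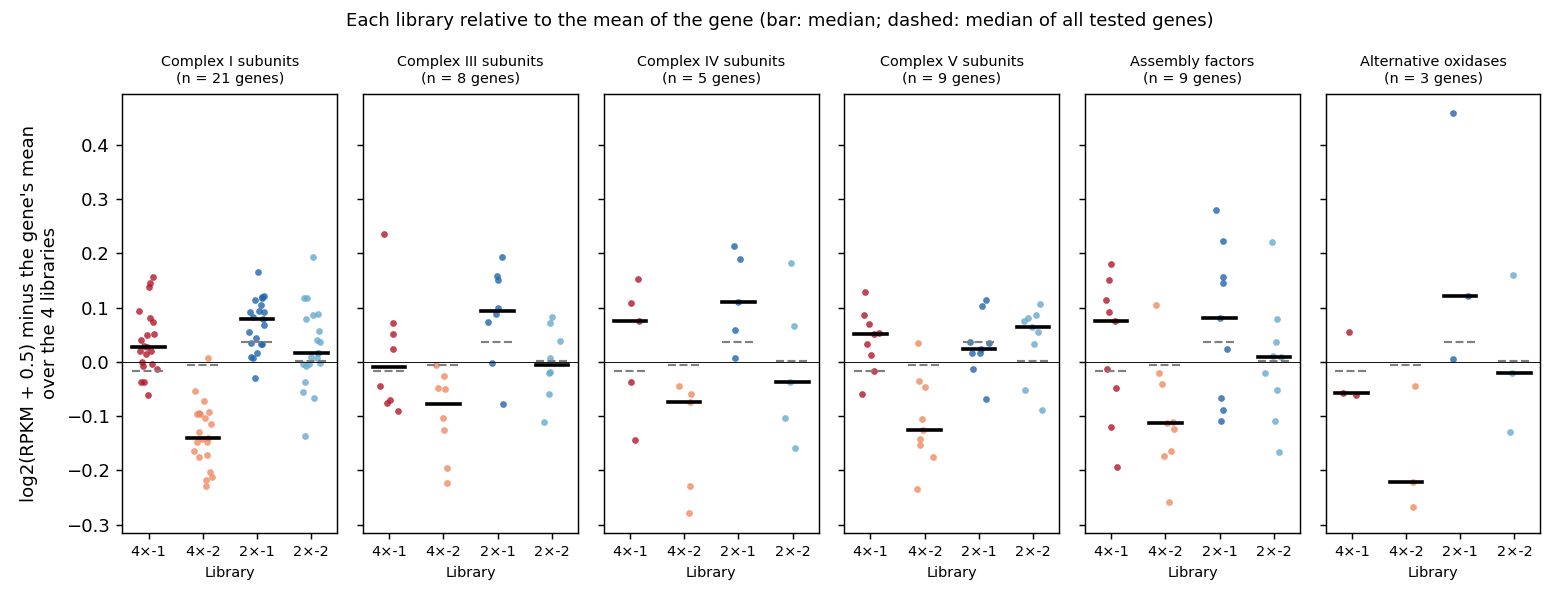
Log2(RPKM + 0.5) of each member in each library minus the mean of that gene over the 4 libraries, by group of genes. Bars are medians of the group and dashed lines medians of all 16157 tested genes; 20 of the 21 complex I subunits lie below their own mean in 4×-2, with a median of -0.14, and 1 of 21 does so in 2×-1.

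The proportions between complexes differed little. The sum of complex IV over that of complex I was 0.411 and 0.416 in 4×, against 0.399 and 0.395 in 2×, higher in both 4× libraries, with the smallest p that the design allows (exact permutation p = 0.333). A single gene, orange1.1t01677, gave 514.0 and 473.0 RPKM of the complex IV sums in 4×, against 490.4 and 475.8 RPKM in 2×. The higher ratio in 4× rested on this gene, whose weight in the sum depends on its short gene length. The sum of complex III over complex I was 0.341 and 0.352 in 4×, against 0.342 and 0.342 in 2×. The sum of complex V over complex I was 0.627 and 0.645 in 4×, against 0.607 and 0.627 in 2×. The sums of complexes I, III, IV and V were each lowest in 4×-2.

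Other genes of the pathway were collected by description words, 63 genes with 57 tested. They cover complex II, which feeds electrons from succinate, alternative NAD(P)H dehydrogenases, cytochrome c, electron transfer flavoproteins, carriers of ADP, ATP and phosphate, uncoupling proteins, porins, protein import and prohibitins. None was called in either direction by limma, where 1.39% of all tested genes were called. At an unadjusted p below 0.05 there were 8, against 13.3% of all tested genes. Fold changes below 0 numbered 43, or 75.4%, against 55.6% of all tested genes, and the median was -0.11, against -0.03. Both 4× libraries lay below both 2× libraries in 26 genes, or 45.6%, against 26.2% of all tested genes. Both lay above in 3 genes, against 17.5% of all tested genes. The library 4×-2 was the lowest in 34 of 57 genes, or 59.6%, against 29% of all tested genes, and it was also the lowest in many of the members. Cytochrome c, the carrier between complexes III and IV, summed over 2 genes to 246.2 and 193.4 RPKM in 4×, against 268.1 and 240.2 RPKM in 2×, and the groups overlapped. The 3 genes described as chloroplast ATP synthase, which makes ATP in the light, had a median log2 fold change of 0.15, with 0 called and 0 at an unadjusted p below 0.05 (limma).

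Markers of the cell types in a leaf were read from the same table. The 13 genes of photosynthetic cells summed to 12622 and 12666 RPKM in 4×, against 9408 and 11568 RPKM in 2×, and 2 of the 13 stayed below 1 RPKM, so the tissue label fitted the data. A single gene, Cs6g18680, gave 8077 and 8070 RPKM of the sums in 4×, against 5868 and 7089 RPKM in 2×. Of the 11 tested, 10 had a fold change above 0 and none of these was called, while Cs4g03580 was called lower in 4× (3.88 and 3.24 RPKM in 4×, against 7.16 and 6.81 RPKM in 2×; adjusted p = 0.0466 with limma). The 16 xylem markers summed to 290.0 and 281.9 RPKM in 4×, against 176.8 and 178.5 RPKM in 2×. Of these 16, 5 were tested and 2 were called higher in 4×, Cs2g27790 and Cs2g27860, and 2 were at 0 in all libraries. Among the 5 tested, 4 had a fold change above 0. The other, Cs8g01170, was lower in 4×, with 1.79 and 2.79 RPKM against 3.16 and 3.72 RPKM in 2×, and was not called. The sums were carried by Cs2g27790 and Cs9g02840, with means over the libraries of 107.2 and 110.5 RPKM in that order. The sum of the 6 phloem markers in 4× was 0.928 of that in 2× and was carried by Cs2g10910, with a mean of 642.6 RPKM, while 3 of the 6 had a fold change above 0 and the median of the 6 was 0.07 log2 units. The sums stood at 0.997 for 2 guard cell markers, of which 1 was tested, and at 0.917 for 8 markers of dividing cells, of which 2 were tested. These 2, Cs6g18950 and Cs2g03360, carried the sum of dividing cells, with means of 212.6 and 52.3 RPKM in that order. The other markers of dividing cells stayed below 1 RPKM. The part of a different makeup of cells in the values of the respiratory chain genes was not tested.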

How the data were processed

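RNA-seq of mature leaves (4× and 2×, 2 libraries each, grouped by the sample labels) was used. The authors aligned 50 bp single-end reads to the *C. sinensis* genome and deposited RPKM per gene from uniquely mapped reads. The submitters' processing notes name TopHat2 2.0.9, Bowtie2 2.0.6, HTSeq 0.5.4p3 and DESeq 1.10.1, and the use of strand is not given in the sources used here. Whole reads were recovered from the RPKM values for 24073 of 24073 genes above 0 (100%, tolerance 0.001 reads, up to a shared factor), and sum to 97.9% of each library total. Gene lengths from 60 to 30000 bp were searched. A gene above 0 in few libraries can find a match by chance, so the 100% does not show that its reads are right. RPKM is relative to the library and says nothing of RNA per cell.

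The 16157 genes that averaged 1 RPKM or more were fitted on log2(RPKM + 0.5), 4× minus 2×, by limma 3.58.1 under R 4.3.3, using lmFit and then eBayes with a trend. Tests were two-sided, and a Benjamini-Hochberg adjusted p below 0.05 was a call. Fold changes on this scale understate those of low genes. Sums and ratios were compared by exact permutation. The count test, voom on recovered reads, called 406 genes. Alternatives were pseudocounts of 0.1 and 1, no filter, a minimum of 3 RPKM, median-of-ratios scaling, robust eBayes, a replicate block, voom and each library left out. The code was tested on simulated data with 200 changed genes. Python 3.11.15 was used.

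Named genes are the alternative oxidases, the 5 largest non-overlapping changes in each direction (3 existed for increases), the highest and lowest member of each complex and the same-named pair with the largest ratio in each complex. Alfin-like genes were kept out of complex V, a departure from the first grouping. Members and lists were chosen with earlier results of these data known. No sequences were printed, since none is in the sources used here.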

Additional observations from a re-analysis of the deposited data

How the results depend on the processing

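No respiratory chain gene was called under any of 12 alternatives (251 values of 21 named genes, smallest adjusted p 0.065), and the medians of the members and of complexes I, III, IV and V stayed below 0 under the other pseudocounts, filters, scaling, robust eBayes, block and voom. Of all tested genes 224 were called, 160 lower and 64 higher in 4×. This count was 0 with limma and no filter on low values (2438 at an unadjusted p below 0.05), 406 with voom on recovered reads and 77 to 264 with 1 library left out, lowest without 2×-2. Median-of-ratios scaling moved the median of all genes to 0.00 and gave 178 calls, 109 lower and 69 higher. The members' median was then -0.06, with 44 of 60 below 0.

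With 1 library left out, the median log2 fold change ran from -0.158 (without 4×-1) to -0.0160 (without 4×-2) for the members, from -0.187 to -0.0163 (without 4×-2) for complex I, from -0.129 to 0.0894 for complex IV (0.0482 without 2×-1 and 0.0894 without 4×-2), and from -0.162 (without 4×-1) to 0.0162 (without 4×-2) for complex V. Single fold changes that changed sign, none of them called, ran from -0.258 to 0.0991 for Cs6g10400, from -0.153 to 0.0445 for Cs6g14660, from -0.287 to 0.0763 for Cs7g28890, from -0.128 to 0.0591 for Cs2g05210, from -0.268 to 0.0482 for Cs3g17930, from -0.0302 to 0.0894 for orange1.1t01677, from -0.0173 to 0.0886 for Cs6g05950 and from -0.000771 to 0.145 for Cs1g02700. Others kept their sign but moved by over 1.5 times, among them Cs1g15410 from -0.308 (without 4×-1) to -0.0746 (without 4×-2), Cs1g17790 from -0.403 to -0.132 with the same libraries, Cs3g08960 from 0.0293 (without 4×-1) to 0.251 (without 4×-2), Cs2g02460 from -0.304 (without 4×-1) to -0.0270 (without 4×-2) and Cs3g09720 from -0.622 (without 2×-2) to -0.0357 (without 2×-1). A group left with 1 library was assumed to vary like the other group. The causes of these shifts were not tested.

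With the replicate number as a block, 832 genes were called, 322 higher and 510 lower, and 0 members. Across all tested genes, samples with the same number did not deviate together (r = -0.0462 over 16157 genes, which are not independent). A single r over all genes cannot exclude a shift that such samples share in part of the genes. It therefore does not decide whether the numbers pair the libraries. With 2 libraries per group, a difference in a single sum or ratio could not pass 0.05 in any exact test.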
